A study of Homo sapiens with 24 samples.

Results

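The 5 genes described here encode the parts of the inter-alpha-trypsin inhibitor family of plasma proteins: AMBP, which gives the light chain, and the heavy chain genes ITIH1, ITIH2, ITIH3 and ITIH4. They were taken by symbol from the 34618 genes of the deposited count table, and the family was chosen by the level of ITIH3, which was higher in both knockdown lines of the study. HepG2, an established human hepatocellular carcinoma line, had been made to carry 1 of 3 lentiviral short hairpin RNAs. The hairpin was non-specific in shCtrl, aimed at SETD2 in shSETD2 and at METTL14 in shMETTL14, and infected cells had been selected with 1 ug/mL puromycin into stable lines. Each line was sampled untreated (0 h) and after 1, 3 and 6 h in 5 ug/mL actinomycin D, a drug that blocks transcription, which gave 12 groups of 2 libraries. The design text calls the 2 libraries of a group biological replicates, and the sources used here do not say whether they came from separate cultures. There was 1 line for each hairpin label, so an effect of the targeted gene and a difference between the lines cannot be told apart.

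Inter-alpha-trypsin inhibitor proteins are made by hepatocytes and secreted into plasma. AMBP encodes a single precursor that is cut into alpha-1-microglobulin, a lipocalin, and bikunin, a serine protease inhibitor with Kunitz domains. Bikunin carries a chondroitin sulfate chain, and the heavy chains from ITIH1, ITIH2 and ITIH3 are joined to that chain. In inflamed or expanding matrix the protein TNFAIP6 moves heavy chains from bikunin to hyaluronan. The product of ITIH4 is related but is not joined to bikunin, and is known as an acute phase protein. SETD2 is the methyltransferase that places trimethylation on lysine 36 of histone H3, and METTL14 is the partner of METTL3 in the complex that writes N6-methyladenosine into RNA.

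On GRCh37, the build named in the submitters' processing notes, 3 of the heavy chain genes lie side by side. ITIH1 (ENSG00000055957) occupies chr3:52811603-52826078 on the plus strand, ITIH3 (ENSG00000162267) follows at chr3:52828784-52843025 on the same strand, and ITIH4 (ENSG00000055955) faces them at chr3:52846991-52865495 on the minus strand. ITIH2 (ENSG00000151655) is at chr10:7745232-7791483 on the plus strand, and AMBP (ENSG00000106927) is at chr9:116822407-116840752 on the minus strand. The 250 bases before the start site are shown for ITIH3, for its neighbour ITIH4, which was close to the limit of detection, and for AMBP, the light chain. They come from RefSeq with GRCh38.p14 positions, in which 4 of the 5 genes had an entry. ITIH2 had none, and the ITIH1 windows begin at alternative starts and are not printed. Each is written in the direction of the gene, at chr3:52794546-52794795 (plus), chr3:52830673-52830922 (minus) and chr9:114078301-114078550 (minus), and capitals mark matches to the motifs named after them.
ITIH3: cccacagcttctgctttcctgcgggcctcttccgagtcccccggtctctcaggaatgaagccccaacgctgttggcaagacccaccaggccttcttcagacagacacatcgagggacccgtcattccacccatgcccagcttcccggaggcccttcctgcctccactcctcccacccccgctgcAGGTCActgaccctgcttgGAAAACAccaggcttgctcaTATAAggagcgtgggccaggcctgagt
ITIH4: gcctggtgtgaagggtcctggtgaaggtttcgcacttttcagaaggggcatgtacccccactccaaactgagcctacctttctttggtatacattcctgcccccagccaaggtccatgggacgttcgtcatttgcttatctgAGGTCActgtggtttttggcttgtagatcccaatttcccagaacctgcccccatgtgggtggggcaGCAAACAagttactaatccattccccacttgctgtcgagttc
AMBP: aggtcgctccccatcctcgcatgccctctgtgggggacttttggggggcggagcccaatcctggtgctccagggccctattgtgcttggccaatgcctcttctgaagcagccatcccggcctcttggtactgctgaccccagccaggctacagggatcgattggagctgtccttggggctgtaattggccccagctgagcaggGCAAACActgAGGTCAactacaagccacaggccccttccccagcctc
The motifs searched on both strands were TATAA, the nuclear receptor element AGGTCA, the forkhead core TGTTTNC, the HNF1 element GTTAAT and the C/EBP core TTGCNNAA. TATAA was found in the ITIH3 window, 27 bases before the start, and 18.9% of 35116 RefSeq windows of the same length held it. AGGTCA was in each of the 3 windows (at -66 in ITIH3, -108 in ITIH4 and -37 in AMBP) and in 12.1% of all windows. The forkhead core lay on the opposite strand of each (from -47 in ITIH3, -42 in ITIH4 and -47 in AMBP), against 15.5% of all windows. GTTAAT (6.23% of windows) and TTGCNNAA (9.05%) had no match in these 3. A match describes letters and is not a measured binding site. No matches are given for ITIH1 and ITIH2, so those in the 3 windows are not shown to be a feature of the family.

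Library totals ran from 18308638 to 31402091 counts. A count of 0 therefore allowed up to 0.0955 to 0.164 CPM (counts scaled to a common library total), taken as 3 counts of the total and covering counting error alone. The targeted genes followed their labels at 0 h: SETD2 was at 0.665 times its shCtrl level in shSETD2 (log2 fold change -0.59, SE 0.0646, adjusted p 1.20e-07) and METTL14 at 0.488 times in shMETTL14 (-1.03, SE 0.0992, adjusted p 1.26e-08). METTL14 was also higher in shSETD2, at 1.29 times (0.37, adjusted p 0.0026, edgeR), and SETD2 was at 0.967 times in shMETTL14 (-0.05, adjusted p 0.557, edgeR). Each of the 11 hepatocyte and hepatoma markers was detected, with a summed level of 56087.5 to 108495.5 CPM in shCtrl, 105983.8 to 196706.6 in shSETD2 and 64816.5 to 134322.2 in shMETTL14. DCN, PTPRC, CD3E and KDR, from the lists for fibroblasts, blood cells and endothelium, had a count of 0 in every library, but other genes of these lists were detected. The remaining markers of other cells were summed for shCtrl, shSETD2 and shMETTL14 in turn. Fibroblast markers (8 of 9 detected) gave 13.4 to 22.2, 18.5 to 40.6 and 28.6 to 59.8 CPM, and blood and immune markers (7 of 9) gave 1047.8 to 2419.2, 1372.6 to 2615.1 and 2074.7 to 5061.6 CPM. Endothelial and stellate markers (6 of 7) gave 2391.2 to 4222.8, 1399.8 to 2263.3 and 1505.5 to 2822.6 CPM. Markers of HEK293T, the line that produced the virus (7 of 7), gave 155 to 189, 113 to 173 and 87.1 to 128 CPM. Over 1, 3 and 6 h the 2 tested fibroblast markers, COL1A1 and PDGFRB, were called higher in both knockdown lines by edgeR. Of 5 tested blood and immune markers, 3 were higher in each line and 1 was lower in shSETD2. Of 4 endothelial and stellate markers, 1 was higher and 2 lower in shSETD2, and 2 and 2 in shMETTL14. Of all tested genes, 26.6% rose and 32.9% fell in shSETD2, and 33.6% and 33.4% in shMETTL14. The part of these levels in the results was not tested. The 2 libraries of shSETD2 at 6 h stood apart: their mean chi-square per gene was 27.0, against 1.45 to 7.06 in the other 11 pairs. The table held 0 entries for the spike-in RNA named in the protocol. Every level is therefore relative to the other RNA of its library, and fewer cells and less RNA per cell cannot be told apart.

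Compared by the deposited RPKM, in which reads are scaled to exon length and library total, the 5 genes differed in abundance by orders of magnitude. In the 8 shCtrl libraries ITIH2 had the highest level, with a median of 1088.9 RPKM (935.0 to 1423.1). AMBP followed with 426 RPKM (372 to 581), ITIH3 with 8.74 (8.22 to 12.6), ITIH1 with 0.237 (0.0989 to 0.331) and ITIH4 with 0.027 (0.00662 to 0.0391). No 2 neighbours in this order overlapped over the 8 libraries. ITIH2 thus supplied a median of 99.1% of the heavy chain RNA per length in shCtrl, ITIH3 0.847%, ITIH1 0.019% and ITIH4 0.00251%. The order of the 5 was the same by median in both knockdown lines.

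**Figure D1:**
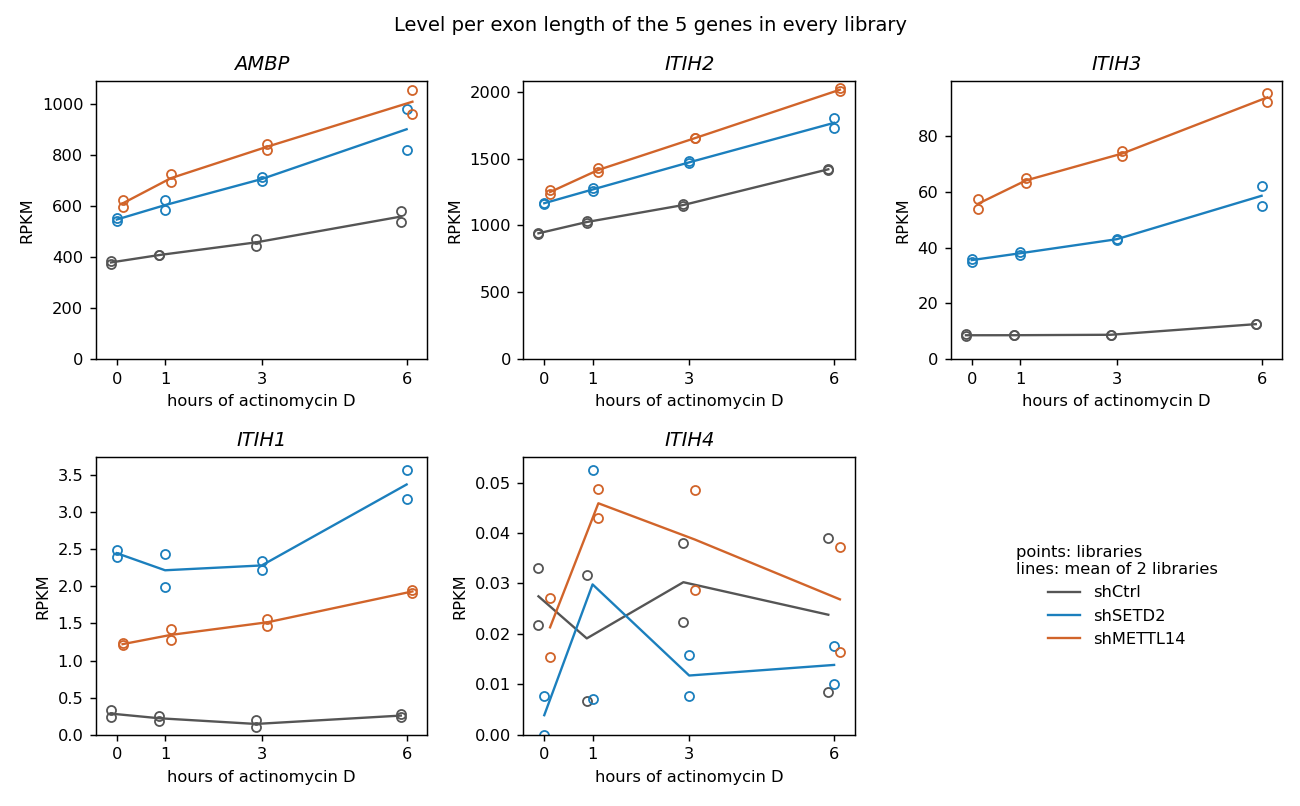
RPKM of the 5 genes (vertical axes, linear from 0 and with a scale of their own) against hours of actinomycin D, with 1 open point for each of the 24 libraries and a line through the mean of 2. For AMBP, ITIH2, ITIH3 and ITIH1 the shCtrl points lie below those of both knockdown lines at each time, whereas the ITIH4 points (0 to 9 counts) are mixed.

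AMBP, the light chain gene, was higher in both knockdown lines. Scaled by the trimmed mean of M values (TMM), its level in shCtrl was 675 ± 14.4 CPM (SD, n = 2 here and for each group mean that follows) at 0 h, 760 ± 1.17 at 1 h, 952 ± 35.1 at 3 h and 1266.7 ± 79.3 at 6 h. In shSETD2 it was 1084.7 ± 12.1, 1229.0 ± 45.5, 1549.1 ± 20.8 and 2183.3 ± 266 CPM. In shMETTL14 it was 1045.3 ± 31.5, 1324.6 ± 41.6, 1729.4 ± 35.0 and 2345.4 ± 140 CPM. Both knockdown libraries were above both shCtrl libraries at each of the 4 times. Over 1, 3 and 6 h AMBP rose 1.66-fold in shSETD2 (log2 0.73, SE 0.0353, adjusted p 2.50e-14) and 1.80-fold in shMETTL14 (log2 0.85, SE 0.0354, adjusted p 1.30e-15). The p-values are from edgeR's quasi-likelihood test, adjusted by Benjamini-Hochberg over 14887 genes. The list of members was set with earlier results of these data known. The p-values of AMBP, and those of ITIH2 and ITIH1 below, are therefore not independent of that choice.

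ITIH2, the predominant heavy chain gene in these cells, showed the smallest difference of the 4 tested genes. Its level in shCtrl was 2774.4 ± 16.7 CPM at 0 h, 3163.9 ± 20.6 at 1 h, 3975.9 ± 10.5 at 3 h and 5332.9 ± 45 at 6 h. In shSETD2 the values were 3830.7 ± 33.1, 4277.4 ± 33.7, 5351.6 ± 24.0 and 7099.3 ± 249 CPM. In shMETTL14 they were 3546.2 ± 57.1, 4379.0 ± 48.9, 5687.1 ± 2.15 and 7762.8 ± 9.87 CPM. The knockdown libraries again lay above the shCtrl libraries of the same time without overlap. Over the 3 treated times ITIH2 rose 1.34-fold in shSETD2 (log2 0.43, SE 0.0187, adjusted p 3.88e-15, edgeR) and 1.42-fold in shMETTL14 (log2 0.51, SE 0.0187, adjusted p 1.24e-16, edgeR). As for AMBP, these p-values are not independent of how the list was set.

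ITIH3, the gene for which the family was chosen, had a low level in shCtrl: 46.1 and 42.4 CPM at 0 h, 46.3 and 46.5 at 1 h, 52.8 and 52.9 at 3 h, and 83.0 and 81.9 at 6 h. In shSETD2 the 2 libraries of each time gave 202 and 207, 227 and 222, 276 and 274, and 436 and 390 CPM. In shMETTL14 they gave 286 and 269, 353 and 343, 452 and 439, and 642 and 627 CPM. The lowest shSETD2 library was thus above the highest shCtrl library, whatever the time, and at each time shMETTL14 was above shSETD2. These values rest on 1166 to 1601 counts per library in shCtrl, 5032 to 7609 in shSETD2 and 7615 to 12989 in shMETTL14. Over the treated times ITIH3 was 5.02 times its shCtrl level in shSETD2 (log2 2.33, SE 0.0318) and 7.87 times in shMETTL14 (log2 2.98, SE 0.0322). Because ITIH3 was chosen for being higher in both lines, these differences are a description and no p is given for them. In these orderings of all 14887 tested genes by log2 fold change it stood 199th from the top in shSETD2 and 79th in shMETTL14.

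ITIH1, the heavy chain gene next to ITIH3, was barely detected in shCtrl. Its levels there were 0.949 and 1.31 CPM at 0 h, 0.786 and 1.06 at 1 h, 0.457 and 0.897 at 3 h, and 1.19 and 1.42 at 6 h, from 11 to 38 counts per library. In shSETD2 it reached 10.6 and 11, 11 and 9.07, 11.4 and 10.9, and 19.2 and 17.2 CPM. In shMETTL14 it reached 4.68 and 4.62, 5.91 and 5.30, 6.80 and 7.20, and 10.1 and 9.92 CPM. Here the order of the lines differed from that of ITIH3, with shSETD2 above shMETTL14 at each time and shCtrl lowest. Over the treated times ITIH1 rose 13.5-fold in shSETD2 (log2 3.76, SE 0.105, adjusted p 7.95e-19, edgeR) and 7.79-fold in shMETTL14 (log2 2.96, SE 0.114, adjusted p 2.88e-16, edgeR). It stood 62nd and 81st from the top of the 14887 genes. As for AMBP, the ITIH1 p-values are not independent of how the list was set. The longest run of bases that the longest GENCODE 29 transcripts of ITIH1 and ITIH3 share was 32, and the sources used here do not say how reads from shared sequence were assigned.

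ITIH4 had 1 to 5 counts per library in shCtrl (25 in all 8), 0 to 9 in shSETD2 (17 in all) and 2 to 8 in shMETTL14 (37 in all). It did not pass the filter on low counts and was not tested, and a difference between the lines was not detectable at this depth. The gene overlaps ITIH4-AS1 on the plus strand and RP5-966M1.6 on the minus strand, and the sources used here do not state whether counting used strand. ITIH4 thus had almost no reads in any line, and its neighbour ITIH3 had at least 5032 counts in each knockdown library. Of the more distant relatives, ITIH6 had 0 counts in shCtrl, 1 in shSETD2 and 11 in shMETTL14. ITIH5, which is expressed in many tissues besides liver, was detected at 50.7 to 94.6 CPM in shCtrl, 43.8 to 80.0 in shSETD2 and 53.7 to 115 in shMETTL14. Over the treated times it fell to 0.861 times the shCtrl level in shSETD2 (log2 -0.22, SE 0.0367, adjusted p 2.33e-05, edgeR) and rose 1.24-fold in shMETTL14 (log2 0.31, SE 0.0358, adjusted p 8.99e-08, edgeR).

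The rule that chose ITIH3 names both knockdown lines but no single time, so its differences from shCtrl cannot be taken as independent of the choice at any time. The untreated values of the 4 genes are given as a description, with no test. At 0 h the shSETD2 level was 9.43 times that of shCtrl for ITIH1, 4.63 times for ITIH3, 1.61 times for AMBP and 1.38 times for ITIH2. In shMETTL14 the same ratios were 4.06, 6.27, 1.55 and 1.28. Both knockdown libraries lay above both shCtrl libraries in 8 of these 8 comparisons, as did those of 39.3% of all tested genes in shSETD2 and 37.9% in shMETTL14. By edgeR 21.6% of tested genes were called higher in shSETD2 and 23.1% in shMETTL14 at 0 h. The other members were taken by family, but the list was set with earlier results of these data known. Their differences from shCtrl are therefore not independent of the choice either. The list left out the relative ITIH5, which stood at 0.858 times its shCtrl level in shSETD2 at 0 h.

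In the treated libraries of the same lines, 4 of the 4 tested members were called higher in shSETD2, where 26.6% of all tested genes were, and 4 of 4 in shMETTL14, where 33.6% were. These counts include ITIH3, which was chosen for this difference, and ITIH4 is the fifth and was not tested. They leave out ITIH5, a relative that was called lower in shSETD2 and higher in shMETTL14. Each of the 4 had at least 11 counts in every library, shCtrl included, so none passed the filter through the knockdown groups alone. Their median log2 fold change was 1.53 in shSETD2 and 1.91 in shMETTL14, beside -0.04 and 0.01 for all tested genes. Each, ITIH3 with the same limit, was also called higher at 1 h, at 3 h and at 6 h taken singly. Both knockdown libraries lay above both shCtrl libraries in 24 of 24 such comparisons. Of all tested genes, 36.2, 30.8 and 24.8% lay so in shSETD2 at 1, 3 and 6 h, and 40, 39.3 and 33.9% in shMETTL14. At 1 h 21.6% of tested genes were called higher in shSETD2 and 25.9% in shMETTL14, at 3 h 17.9% and 25.6%, and at 6 h 17% and 22.7%. Leaving out each library in turn, the 2 of shSETD2 at 6 h included, left 4 of 4 called in each line. The ITIH3 difference then ran from 2.30 to 2.35 in shSETD2 and from 2.97 to 2.98 in shMETTL14. The summed level of the hepatocyte and hepatoma markers moved with these genes: 11 of the 11 rose in shSETD2 (median log2 0.89), and 9 rose and 2 fell in shMETTL14 (median 0.38), and the part of this in the result was not tested. The 2 comparisons share the shCtrl libraries.

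**Figure D2:**
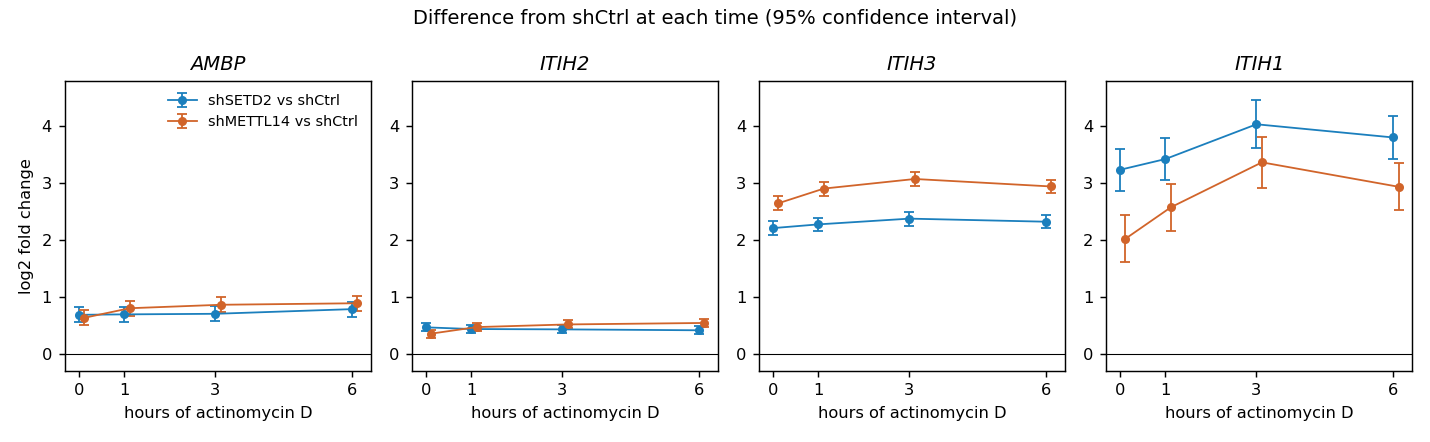
Log2 fold change from shCtrl (vertical axis, shared by the panels) at each time in actinomycin D for the 4 tested genes, with points for shSETD2 and shMETTL14. Bars are 95% confidence intervals computed from the SE of the edgeR fit with 12 residual degrees of freedom. AMBP and ITIH2 stay under 1 in both lines, ITIH3 is higher in shMETTL14 and ITIH1 is higher in shSETD2. ITIH3 was chosen for being higher in both lines.

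The 2 knockdown lines differed from each other in opposite ways for the 2 neighbours. Over the treated times ITIH1 was 1.74-fold higher in shSETD2 than in shMETTL14 (log2 0.80, SE 0.0699, adjusted p 7.87e-10, edgeR), whereas ITIH3 was lower, at 0.638 times (log2 -0.65, SE 0.0292, adjusted p 4.45e-15, edgeR). AMBP was lower at 0.918 times (log2 -0.12, adjusted p 0.00353) and ITIH2 at 0.944 times (log2 -0.08, adjusted p 4.05e-04). That is 1 member higher and 3 lower, where 32.6% of all tested genes were higher and 35.7% lower. With median-of-ratios size factors the calls on AMBP and ITIH2 were lost and 2 members remained called. At 0 h, given with no test, the ITIH1 difference was 1.21 (SE 0.125) and that of ITIH3 was -0.44 (SE 0.0507). The 0 h values of ITIH2 (0.11) and AMBP (0.05) turned to -0.10 and -0.16 when library size alone was used for scaling. For ITIH1 and ITIH3 the difference between the lines was larger than the spread between replicates at every time. The share of all tested genes for which this held was not counted, so it is not shown to be particular to these genes.

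Set against each other within the libraries, the heavy chains shifted in proportion. The share of ITIH3 in heavy chain RPKM had a median of 0.847% in shCtrl (0.75 to 0.942), 2.91% in shSETD2 (2.84 to 3.46) and 4.33% in shMETTL14 (4.18 to 4.50). That of ITIH1 was 0.019% (0.00846 to 0.0347), 0.177% (0.147 to 0.208) and 0.0914% (0.085 to 0.0951). No line overlapped another in either share, and ITIH2 still made up 95.4% or more of the heavy chain RNA in every library. ITIH3 was chosen for being higher in both knockdown lines, so the separation of its share is a description. How many of all tested genes separate the 3 lines was not counted, so it is not shown to be particular to these genes. AMBP over the sum of the heavy chains was 0.395 in shCtrl (0.375 to 0.404), 0.461 in shSETD2 (0.44 to 0.546) and 0.473 in shMETTL14 (0.458 to 0.497), per exon length.

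The ratio of ITIH3 to each other member was described in the 12 treated libraries of each comparison as a difference in log2(CPM + 0.5), with no p because ITIH3 was chosen for its level. The log2 ratios to ITIH2 and AMBP were higher than in shCtrl by 1.89 and 1.59 in shSETD2, and by 2.46 and 2.12 in shMETTL14. The ratio to ITIH1 differed from shCtrl by -0.88 in shSETD2 and by 0.52 in shMETTL14. These last values depended on the pseudocount, since ITIH1 is near 1 CPM in shCtrl. With 2 CPM the shSETD2 value was -0.03, and with 0.1 CPM the shMETTL14 value was 0.11. Ranges without a pseudocount were taken over all 8 libraries of each line, 0 h included. The ITIH3 RPKM was 24.8 to 88.7 times the ITIH1 RPKM in shCtrl, 14.5 to 19.3 times in shSETD2 and 44.6 to 51.0 times in shMETTL14. So shSETD2 lay below shCtrl, and shMETTL14 lay inside the shCtrl range. The ratios to ITIH4 (2.39 and 2.81) rest on the pseudocount, because ITIH4 had few reads.

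**Figure D3:**
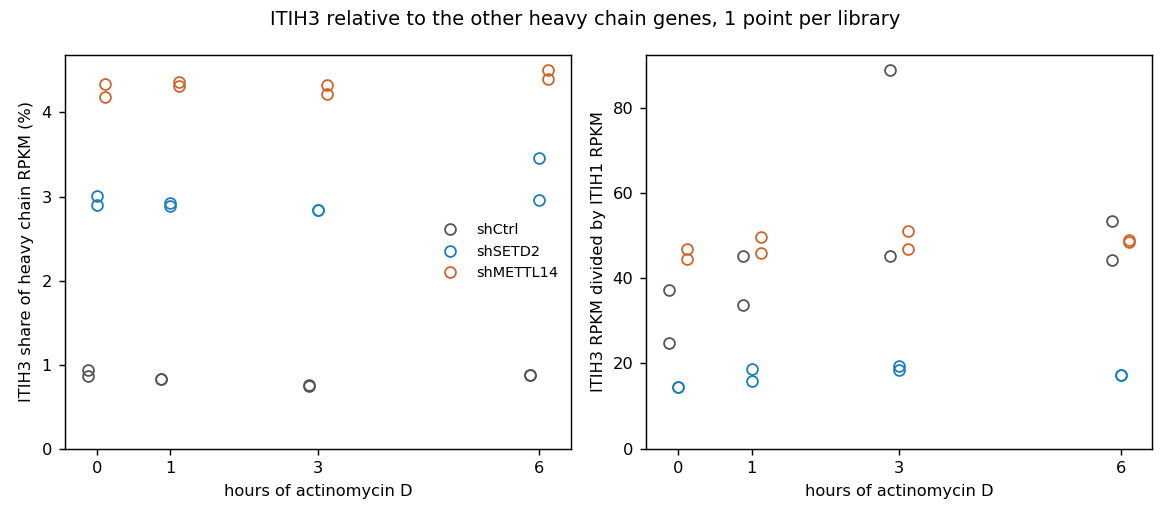
Left, the share of ITIH3 in the summed RPKM of ITIH1, ITIH2, ITIH3 and ITIH4 (percent); right, ITIH3 RPKM divided by ITIH1 RPKM; both against hours of actinomycin D with 1 point per library. The share separates the 3 lines (medians 0.847, 2.91 and 4.33%), whereas the ratio separates shSETD2 (14.5 to 19.3) from the other lines, which overlap. ITIH3 was chosen for being higher in both knockdown lines.

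Within each line the levels of the 4 genes climbed relative to other RNA during the drug. From 0 to 6 h the mean CPM of ITIH3 rose 1.86-fold in shCtrl, 2.02-fold in shSETD2 and 2.29-fold in shMETTL14. By the deposited RPKM, scaled by the column total, the same changes were 1.46, 1.65 and 1.69-fold, and these are changes in a share of the remaining RNA with no external standard. Fitted as a slope over 0 to 6 h, ITIH3 gained 0.15 log2 units per h in shCtrl (SE 0.00863), 0.17 in shSETD2 (SE 0.00773) and 0.19 in shMETTL14 (SE 0.00763). ITIH2 gained 0.16, 0.15 and 0.18, and AMBP 0.15, 0.17 and 0.19. ITIH1 gained 0.13 in shSETD2 and 0.18 in shMETTL14, while its slope of 0.03 in shCtrl did not pass the test (SE 0.0439, adjusted p 0.509, edgeR). Slopes above 0 were called for 3 of 4 tested members in shCtrl, where 37.8% of tested genes had one, for 4 of 4 in shSETD2 (34.2%) and for 4 of 4 in shMETTL14 (38.2%).

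The slopes were then compared between lines, the comparison closest to the study's question on RNA stability. In shSETD2 0 of the 4 tested members had a slope different from shCtrl by edgeR, where 1.49% of tested genes had a higher and 6.45% had a lower one. ITIH3 differed by 0.02 log2 per h (95% interval -0.007 to 0.043) and ITIH1 by 0.10 (-0.001 to 0.203, unadjusted p 0.0421, adjusted p 0.198, edgeR), so that 1 of 4 had an unadjusted p under 0.05. The intervals were computed from the SE with 12 residual degrees of freedom. edgeR's test also draws on the spread of other genes, so an interval can include 0 where its unadjusted p is under 0.05. DESeq2 called 1 of the 4, a stricter filter on low counts gave 3, and leaving out replicate 1 of shCtrl at 0 h or replicate 2 of shSETD2 at 6 h gave 2. In shMETTL14 the slopes of ITIH2 (0.03 higher, SE 0.00704, adjusted p 0.0254, edgeR) and ITIH3 (0.04 higher, SE 0.0116) were called, and 1.85% of tested genes had a higher slope. ITIH3 was chosen for its differences from shCtrl, so its call is not an independent test and no p is given. These slopes include the 0 h libraries. Over 1, 3 and 6 h alone the difference was 0.003 for ITIH3 (SE 0.015) and 0.014 for ITIH2 (adjusted p 0.547, edgeR), and neither was called. Both calls were also lost with limma on RPKM, with library size alone as scaling, and when any 1 of the 6 h libraries of shCtrl or shMETTL14 was left out (0 called each time). Leaving out replicate 1 of shCtrl at 1 h or replicate 2 of shMETTL14 at 1 h also gave 0, and leaving out replicate 1 of shCtrl or of shMETTL14 at 0 h gave 4. ITIH1 (0.15, adjusted p 0.0856) and AMBP (0.04, adjusted p 0.135) did not pass. ITIH2 had a lower slope in shSETD2 than in shMETTL14 (log2 -0.03 per h, SE 0.00704, adjusted p 0.00296, edgeR), where 6.4% of tested genes were lower, and over 1, 3 and 6 h alone this difference was -0.02 (adjusted p 0.249, edgeR). The authors' deposited table of half-lives lists 7772 genes and holds 0 of the 5 members.

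The methylation motif of the METTL3 and METTL14 complex was counted in the longest GENCODE 29 transcript of each gene as the word GGACT. It occurred 1.32 times per kb in ITIH3, 2.40 in ITIH1, 1.57 in ITIH2, 1.20 in ITIH4 and 1.39 in AMBP, beside a median of 0.927 over 19669 genes. The word is a sequence match, and N6-methyladenosine was not measured in these libraries.

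The genes around the chromosome 3 cluster did not share the size of the change. Of 11 other genes within 100 kb of ITIH1, ITIH3 or ITIH4, 9 were tested. Over the treated times 3 were called higher and 1 lower in shSETD2, and 1 higher and 5 lower in shMETTL14. Of all tested genes, 26.6% were called higher and 32.9% lower in shSETD2, and 33.6% and 33.4% in shMETTL14. The log2 fold changes of the 9, called or not, ran from -0.11 to 0.73 in shSETD2 and from -0.54 to 1.01 in shMETTL14. The value of 1.01 is that of TMEM110-MUSTN1 (SE 0.445, adjusted p 0.0508, edgeR), which was not called. GLT8D1, a glycosyltransferase gene, was the one called higher in both lines, by 0.73 (SE 0.0300, adjusted p 1.07e-15, edgeR) and 0.39 (SE 0.0301, adjusted p 7.55e-11). NEK4, a kinase gene and the nearest tested neighbour on the other side of ITIH1, differed by 0.07 in shSETD2 (SE 0.0337, adjusted p 0.0645) and fell by 0.08 in shMETTL14 (SE 0.0336, adjusted p 0.044). GNL3 and PBRM1 fell by 0.52 and 0.54 in shMETTL14. Around ITIH2, 4 genes were tested, with ATP5C1 higher (0.20) and ITIH5 lower in shSETD2, and with ITIH5 higher and KIN lower (-0.29) in shMETTL14. Around AMBP, 3 genes were tested, of which 3 were called higher in shMETTL14 and 1 in shSETD2. The collagen gene COL27A1 was higher in both lines (0.09 and 0.06), and the zinc finger gene ZNF618 differed by -0.49 in shSETD2 (adjusted p 0.0639, edgeR) and rose by 0.57 in shMETTL14. The kinesin gene KIF12 differed by 0.01 in shSETD2 (adjusted p 0.965) and rose by 1.44 in shMETTL14 (SE 0.0998, adjusted p 1.36e-11).

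**Figure D4:**
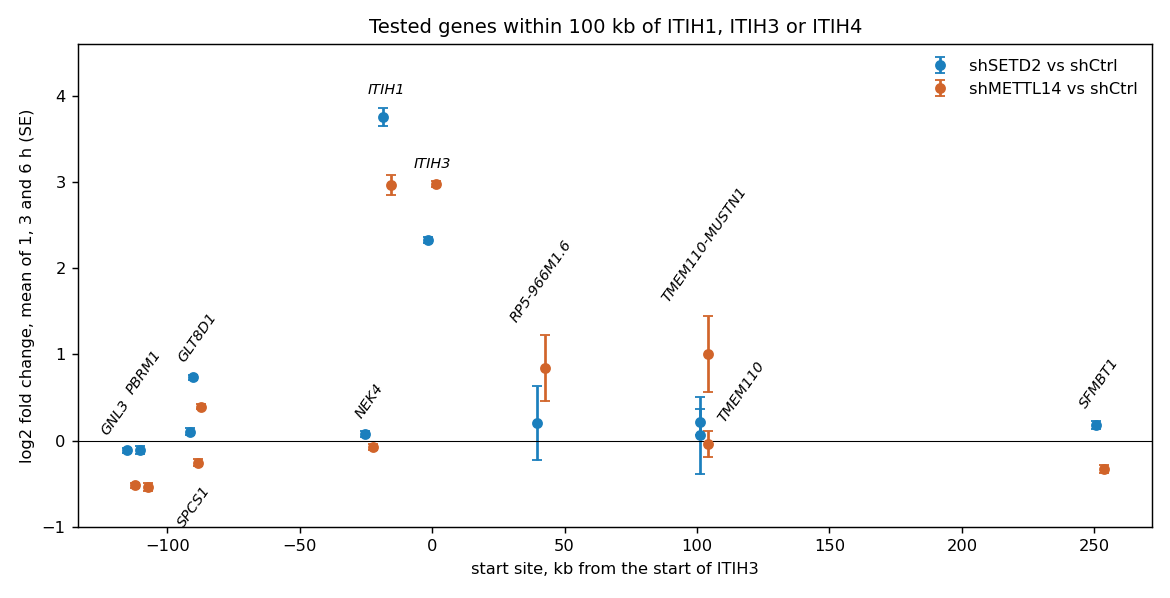
Log2 fold change from shCtrl over 1, 3 and 6 h (vertical axis, bars are SE) of the 11 tested genes near the chromosome 3 cluster, against the distance of each start site from that of ITIH3 in kb. ITIH1 and ITIH3 lie between 2.33 and 3.76 in both lines, and the other 9 genes lie between -0.54 and 1.01.

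The genes whose levels over the 24 libraries were most like those of ITIH3, by Pearson's r of log2(CPM + 0.5) among 9994 genes with a mean of at least 5 CPM, were NAALADL1 (0.989), ALAD (0.989), TUBB1 (0.987), SLC2A2 (0.987) and TMEM106A (0.987). ALAD is an enzyme of heme synthesis and SLC2A2 the glucose transporter of liver and pancreas. SLC2A2 stood at 6.85 CPM at 0 h in shCtrl, 29.9 in shSETD2 and 34.1 in shMETTL14. ALAD stood at 20.7, 39.8 and 48.2 CPM. The other members ranked lower: ITIH1 had 0.886 (162nd), AMBP 0.860 (227th) and ITIH2 0.727 (557th). These are descriptions over libraries that share lines and times.

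The partners of the complex are described by counts beside the shares of all tested genes, of which 26.6% rose and 32.9% fell in shSETD2 and 33.6% rose and 33.4% fell in shMETTL14. Of 14 tested genes of hyaluronan synthesis, binding and turnover, 4 rose and 5 fell in shSETD2 over the treated times (median log2 -0.16), and 8 rose and 3 fell in shMETTL14 (median 0.28). VCAN, the hyaluronan-binding proteoglycan versican, fell to 0.243 times its shCtrl level in shSETD2 (152 ± 18 against 628 ± 93.4 CPM, SD over 6 libraries, adjusted p 4.44e-22, edgeR) and to 0.497 times in shMETTL14 (adjusted p 5.68e-17, edgeR). TMEM2, a cell surface hyaluronidase, fell by 1.07 in shSETD2 and rose by 0.34 in shMETTL14 on the log2 scale. KIAA1199, which takes part in hyaluronan breakdown, fell by 0.53 in shSETD2 and rose by 0.09 in shMETTL14, and UGDH, which makes the sugar precursor, rose by 0.15 and fell by 0.50. Of 20 tested genes of chondroitin sulfate synthesis, 5 rose and 10 fell in shSETD2 (median -0.10), while 12 rose and 5 fell in shMETTL14 (median 0.18). CSGALNACT1, which starts the chain, went from 9.68 ± 0.497 CPM in shCtrl to 2.99 ± 0.213 in shSETD2 (log2 -1.70, adjusted p 9.14e-16, edgeR) and to 21.3 ± 1.79 in shMETTL14 (log2 1.13, adjusted p 3.50e-15, edgeR), with SD over 6 libraries. The median over all tested genes was -0.04 in shSETD2 and 0.01 in shMETTL14. With library size alone as scaling, calls in shSETD2 went from 3954 higher and 4892 lower to 2950 and 6485.

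Genes related to the 2 products of AMBP were counted in the same way, against 26.6% of all tested genes higher and 32.9% lower in shSETD2, and 33.6% and 33.4% in shMETTL14. Among 9 tested genes with Kunitz domains, 1 rose and 4 fell in shSETD2 (median -0.28), and 6 rose and 1 fell in shMETTL14 (median 0.48). APP, the amyloid precursor, fell by 0.77 in shSETD2 and rose by 0.58 in shMETTL14, and APLP2, its relative, fell by 0.45 and rose by 0.46. TFPI, the tissue factor pathway inhibitor, rose by 0.73 in shSETD2 and 0.48 in shMETTL14, and SPINT1, an inhibitor of membrane proteases, fell by 0.43 in shSETD2 and rose by 1.64 in shMETTL14. Among 9 tested lipocalins, 3 rose and 2 fell in shSETD2 (median 0.02), and 3 rose and 3 fell in shMETTL14 (median -0.21), counts near those shares. APOM, an apolipoprotein of the lipocalin fold, rose 4.02-fold in shSETD2 (236 ± 62.2 against 59.1 ± 16.3 CPM, adjusted p 2.12e-21, edgeR) and 5.39-fold in shMETTL14 (317 ± 82.2 CPM, adjusted p 9.92e-23, edgeR), SD over 6 libraries. RBP4, the retinol carrier, rose by 0.73 on the log2 scale in shSETD2 and fell by 0.32 in shMETTL14. LCN15 fell by 3.06 in shSETD2 and differed by -0.21 in shMETTL14 (adjusted p 0.226, edgeR). PAEP, at 1.17 ± 0.461 CPM in shCtrl, fell by 0.87 in shSETD2 and rose by 3.13 in shMETTL14. ORM1, an acute phase glycoprotein, differed by -0.01 in shSETD2 (adjusted p 0.735, edgeR) and fell by 0.67 in shMETTL14.

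Acute phase genes encode secreted liver proteins whose levels change in inflammation. The list was not divided by whether a level rises or falls in inflammation, so its counts do not describe an acute phase response. Of 24 tested acute phase genes, 18 rose and 3 fell in shSETD2 (median log2 0.72; 26.6 and 32.9% of all tested genes), and 18 rose and 5 fell in shMETTL14 (median 0.62; 33.6 and 33.4%). In shSETD2 albumin (ALB) rose 3.80-fold, transthyretin (TTR) 3.09-fold and transferrin (TF) 2.58-fold, and these 3 are also among the hepatocyte markers. They rose by 0.73, 1.06 and 0.38 on the log2 scale in shMETTL14. The fibrinogen chain genes rose in both lines, FGA by 1.04 in shSETD2 and 1.11 in shMETTL14 and FGB by 1.16 and 1.14, and so did the protease inhibitor gene A2M, by 0.84 and 0.95. Other acute phase genes did not rise. HAMP fell by 0.75 in shSETD2 and 0.53 in shMETTL14. LBP differed by -0.04 in shSETD2 (adjusted p 0.914, edgeR) and fell by 2.10 in shMETTL14, where ORM1 fell by 0.67. Of 17 genes of interleukin 6 and acute phase signalling, 5 rose and 7 fell in shSETD2 (median -0.08), and 7 rose and 3 fell in shMETTL14 (median 0.11). The receptor gene IL6R rose by 0.21 in shSETD2 and 1.45 in shMETTL14, and the transcription factor gene STAT3 fell by 0.10 and rose by 0.37. The interleukin 1 receptor gene IL1R1 rose by 0.62 and 0.32. IL1RAP, its partner, rose by 0.70 in shSETD2 and differed by 0.08 in shMETTL14 (adjusted p 0.111, edgeR). The phosphatase gene PTPN11 fell to 0.660 and 0.785 times.

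Of 18 liver transcription factor genes, 9 rose and 3 fell in shSETD2 (median 0.25), while 4 rose and 9 fell in shMETTL14 (median -0.13). Of all tested genes 26.6% rose and 32.9% fell in shSETD2, and 33.6% rose and 33.4% fell in shMETTL14. HNF4A, a nuclear receptor central to hepatocyte gene expression, rose 1.86-fold in shSETD2 (272 ± 18 against 147 ± 17.1 CPM, SD over 6 libraries, adjusted p 2.80e-17, edgeR) and fell by 0.09 on the log2 scale in shMETTL14 (adjusted p 0.0156, edgeR). NR1H4, the bile acid receptor, rose 1.88-fold in shSETD2 and fell to 0.508 times in shMETTL14, and FOXA1 fell by 0.64 in shSETD2 and 0.96 in shMETTL14 on the log2 scale. PPARA, a fatty acid receptor, rose 1.44 and 1.49-fold. Of 13 tested protease genes whose products the complex inhibits or that can cut its chains, 8 rose and 3 fell in shSETD2 (median 0.21), and 9 rose and 2 fell in shMETTL14 (median 0.79). PLG, the precursor of plasmin, went from 0.261 ± 0.162 CPM in shCtrl to 19.3 ± 4.23 in shSETD2 (SD over 6 libraries, log2 6.28, SE 0.130). In shMETTL14 it was higher by 1.15 on the log2 scale (SE 0.285). Its shCtrl level was near the limit for a count of 0 (0.0955 to 0.164 CPM), so the size of the change is uncertain. PLG was named for its small p and may have passed the filter through the knockdown groups, so these values are a description. The coagulation protease gene F10 rose 1.68-fold in shSETD2 and 2.31-fold in shMETTL14, and the membrane protease gene HPN 2.00 and 3.38-fold. TMPRSS6, another membrane protease gene, rose by 1.70 in shSETD2 and 2.46 in shMETTL14 on the log2 scale.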

How the data were processed

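RNA from 24 HepG2 libraries was sequenced. The submitters' processing notes name cutadapt, TopHat, HTSeq 0.6.1p1 and GRCh37, and the sources used here do not give their settings. The deposited counts per gene are whole numbers and were used as they stand. The deposited RPKM equal count over exon length and column total within a relative 0.0001, tested on 100% of the values. The half-lives in hours are a score from the authors' deposited table, with no formula in the sources used here, and were searched for the members alone.

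The members and gene lists were chosen with earlier results of these data known. Counts of 14887 genes passing filterByExpr (minimum count 10) were scaled by TMM, and 12 group means were fitted with edgeR 4.0.16 (robust quasi-likelihood, R 4.3.3, 12 residual degrees of freedom). Contrasts averaged 1, 3 and 6 h, took single times, or gave slopes on time. Benjamini-Hochberg adjusted p under 0.05 was the threshold, and the fit was tested on simulated data. CPM are TMM-scaled. Beyond the members, the text names tested genes within 100 kb, up to 3 genes per list and line with the smallest p, and the 5 genes most like ITIH3. A few cell markers and the acute phase genes HAMP and LBP are named besides. Alternatives were size factors by RLE, library size alone, no filter or a stricter one, DESeq2 1.42.0, limma 3.58.1 on log2(RPKM + 0.1), a replicate block, other pseudocounts and leaving out each library. Promoter and transcript sequences came from RefSeq (GRCh38.p14) and GENCODE 29.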

Additional observations from a re-analysis of the deposited data

Results flagged for a closer look

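Several differences between the lines passed a test of the difference itself (edgeR, adjusted over all tested genes). Over 1, 3 and 6 h, shSETD2 minus shMETTL14 was 0.80 for ITIH1 (adjusted p 7.87e-10), -0.65 for ITIH3 (adjusted p 4.45e-15), -0.12 for AMBP (adjusted p 0.00353) and -0.083 for ITIH2 (adjusted p 4.05e-04) on the log2 scale. In each of these the libraries share lines with the comparisons to shCtrl. Slopes on time differed between shMETTL14 and shCtrl by 0.027 log2 per h for ITIH2 (adjusted p 0.0254) and by 0.041 for ITIH3, and between shSETD2 and shMETTL14 by -0.034 for ITIH2 (adjusted p 0.00296). No p is given for the ITIH3 slope, because ITIH3 was chosen for its differences from shCtrl. Over 1, 3 and 6 h alone these 3 slope differences were 0.014, 0.003 and -0.019, and none was called (adjusted p 0.547 and 0.249 for the 2 of ITIH2, edgeR). Neither shMETTL14 call held with library size alone or with limma on RPKM.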

How the results depend on the processing

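In both lines, 4 of 4 tested members stayed called over 1, 3 and 6 h under each alternative run. ITIH3 was then at 2.21 to 2.37 in shSETD2 and 2.94 to 2.98 in shMETTL14. The 4 include ITIH3, chosen for this difference, and the list was set with earlier results known. Since each run reuses the same libraries, it describes dependence on processing and is not independent support. In the main fit 26.6% of all tested genes were called higher in shSETD2 and 33.6% in shMETTL14. Counts of members whose slope differed from shCtrl were less stable. In shSETD2 (0 called) the stricter filter gave 3 and DESeq2 1, and leaving out a library gave 0 to 2. In shMETTL14 (2 called) library size alone, limma on RPKM and slopes over 1 to 6 h gave 0, the stricter filter 4, and leaving out a library 0 to 4. Between the knockdown lines the 4 calls became 2 with RLE size factors and with DESeq2. The cause was not tested.

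The sign turned in these cases. The ITIH2 slope difference in shSETD2 (-0.007) became 0.012 with RLE and with DESeq2, 0.002 with library size alone and with limma, 0.025 with the stricter filter and 0.025 or 0.024 without 1 shCtrl 0 h library, and that of AMBP (0.017) ran from -0.005 without shSETD2 6 h replicate 1 to 0.051 without shCtrl 0 h replicate 1. At 0 h, shSETD2 minus shMETTL14 became -0.10 for ITIH2 with library size alone and with limma, and -0.16 for AMBP under both. At 6 h it ran for AMBP from -0.229 without shSETD2 replicate 1 to 0.018 without replicate 2. The slope difference between these lines became 0.009 for ITIH1, 0.004 for ITIH3 and 0.002 for AMBP over 1 to 6 h, and for AMBP 0.002 with library size alone and with limma and from -0.041 to 0.000 without 1 shSETD2 6 h library or the other. The ITIH1 slope in shCtrl (0.034) became -0.025 with library size alone, -0.014 with limma and from -0.008 without shCtrl 0 h replicate 1 to 0.055 without shCtrl 6 h replicate 1.

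Library size alone moved the median of all tested genes over 1, 3 and 6 h in shSETD2 from -0.037 to -0.136, and the calls from 3954 higher and 4892 lower to 2950 and 6485. The libraries were treated as unpaired, since no label says that a replicate number marks a shared culture or day. Same-numbered libraries of a time correlated at -0.048 to 0.317 in their deviations, over 0.1 in 5 of 12 group pairs. With the replicate number as a block, 4 members remained called in each line, slope calls in shMETTL14 went from 2 to 3 and those in shSETD2 stayed at 0. With 2 libraries per group and 11 to 38 ITIH1 counts per shCtrl library, depth limits the ITIH1 and ITIH4 values most. The settings for single times, for 0 h and for the slope difference between the knockdown lines were added after seeing the data.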
